A study of Mus musculus with 4 samples.

Results

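The genes of the p53 pathway were followed in bulk RNA of mouse embryonic stem cells (mESCs) that lack telomerase RNA. The list holds 33 genes, *Trp53* itself, its feedback regulators and genes listed as targets of p53. It was drawn up from the names of pathway genes, with no measured value in its rule, but with earlier results of these data known. All 33 were found by symbol among the 53379 genes of the files, and all 33 had enough counts for the test, as did 19148 genes in all. The 4 libraries came from DKO741, a *Terc*-/- line made from E14 mESCs by exchanging both alleles of *Terc*, the gene of the telomerase RNA. Pre-ALT cells at population doubling 100 (PD100, 2 libraries) were compared with post-ALT cells at population doubling 800 (PD800, 2 libraries), where ALT is the alternative lengthening of telomeres that lets cells grow without telomerase. Both groups carry the knock-out, so the comparison is of early and late cells of 1 line, and the late cells descend from rare survivors of telomere loss. The labels also speak of passages 100 and 800. The cells were kept on mouse embryonic fibroblast feeders and were taken feeder-free for RNA. The study calls the libraries of a group biological duplicates, and the labels do not say whether they came from separate cultures, so that p-values measure only the spread between these libraries.

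The expected count of a gene is RSEM's estimate of its read pairs, and the counts of a library summed to between 32454121 and 38492149. Levels are given as CPM, which are counts scaled to library size with edgeR's TMM factors, and 3 counts corresponded to between 0.0743 and 0.0933 CPM. This limit covers counting error only. The targeted gene, *Terc*, had 1 count in PD100 replicate 1 and 0 in each of the other libraries. Transcripts of the mitochondrial genome took 15.4% and 11.01% of the counts in PD100 replicates 1 and 2, and 17.7% and 16.03% in PD800. All 10 markers of embryonic stem cells were expressed in both groups, among them *Pou5f1* at 485 CPM in PD100 and 618 CPM in PD800 (means, n = 2). In bulk RNA, fewer cells of a type and less RNA per cell cannot be told apart.

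p53 is a transcription factor that cells keep scarce under calm conditions, because Mdm2 marks it for degradation and Mdm4 masks its activation domain. Damaged DNA, which includes an uncapped telomere, activates the kinases ATM and ATR, and p53 then accumulates and binds a pair of short palindromic motifs near its targets. The targets halt the cell cycle, start apoptosis through mitochondria or death receptors, slow growth, repair DNA, and restrain p53 itself. Embryonic stem cells are known to hold much p53 and to cycle with a short G1 phase.

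With the quasi-likelihood test of edgeR and Benjamini-Hochberg adjustment over all 19148 genes, 13 of the 33 genes (39.4%) had an adjusted p under 0.01, against 28.5% of all tested genes. In PD800 cells 10 of the 13 were lower and 3 were higher, where 15.4% and 13.1% of all tested genes were lower and higher by the same rule. The other 20 did not pass. With a fold change over 2 as a further condition, 8 of the 33 were lower, against 8.81% of all tested genes, and 0 were higher, against 6.28%. The 8 genes were *Cdkn1a*, *Btg2*, *Gadd45b*, *Gadd45g*, *Perp*, *Fas*, *Tnfrsf10b* and *Ddit4*. No member lay over 2-fold higher at any p, and the log2 fold changes ran from -2.64 to 0.77, with a median of -0.11 beside 0.01 over all tested genes. The balance of the weaker changes depended on the method: DESeq2's Wald test had 7 members higher and 11 lower at the same adjusted p, and limma on log2(TPM + 1) had 0 higher and 9 lower (2 and 16 at an unadjusted p under 0.05). The limma fits change both the test and the scale, and in them the median log2 fold change of all genes was -0.12 with limma on log2(TPM + 1) and -0.21 with a pseudocount of 0.1. The PD100 and PD800 libraries did not overlap in CPM for 31 of the 33 genes, against 73.7% of all tested genes, with PD800 above for 14 (background 37.4%) and below for 17 (background 36.3%). Replicates of a group differed by a median of 1.13-fold in PD100 and 1.05-fold in PD800 over the 33 genes, and by 1.46-fold at most in either group, both times for *Gadd45g*.

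**Figure D1:**
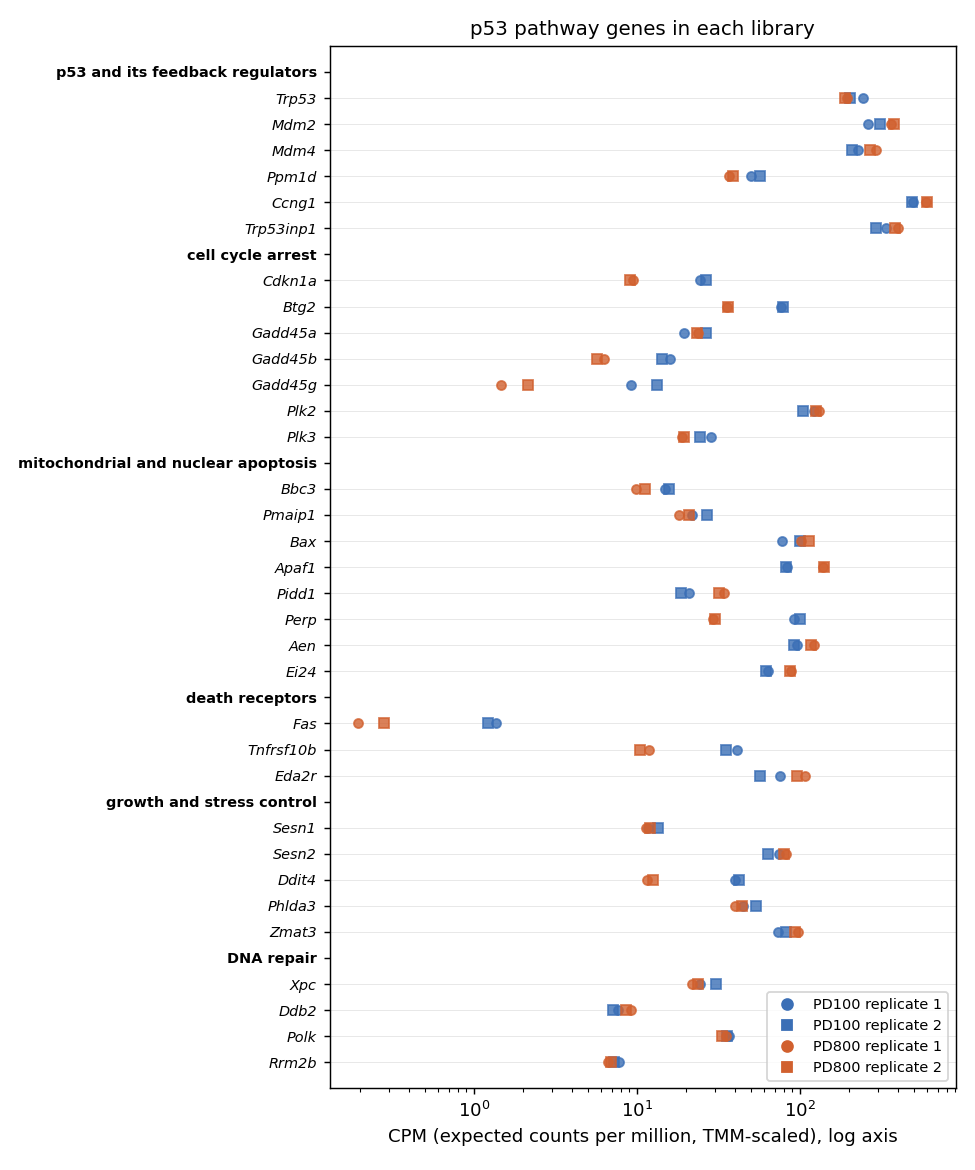
Level of each p53 pathway gene in the 4 libraries, in CPM (expected counts scaled to library size by TMM) on a log axis, with circles for replicate 1, squares for replicate 2, blue for PD100 and orange for PD800. *Cdkn1a*, *Btg2*, *Gadd45b*, *Gadd45g*, *Perp*, *Fas*, *Tnfrsf10b* and *Ddit4* show wide gaps with PD800 on the left. Of p53 and its feedback regulators at the top, all but *Ppm1d* sit at high levels with the groups close together.

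The promoters of the genes are shown first where they carry a recognisable p53 motif, since these are the targets whose sequence can be set beside their change. RefSeq promoters of GRCm38.p6, from 250 bases before to 50 bases after a start, were at hand for 25 of the 33 genes (32 promoters). Not covered were *Tnfrsf10b*, *Zmat3*, *Ddb2*, *Rrm2b*, *Perp*, *Trp53inp1*, *Xpc* and *Pmaip1*. The p53 decamer is a palindromic 10-base motif, so that a match is the same on both strands. It was present without a mismatch in 12 of the 32 promoters (37.5%) and in 8.36% of all 32851 promoters of that length. The full site, which is a pair of decamers side by side and was allowed at most 3 mismatches outside the 4 core bases, was present in 7 of the 32 (21.9%) and in 1.38% of all. A full site may itself hold a perfect decamer, so the counts overlap. Promoters of *Mdm2*, *Ppm1d*, *Ei24*, *Bax*, *Gadd45a* and *Polk* held a perfect decamer but no full site. Among these genes, *Ppm1d* fell and *Ei24* rose past the test, and the others did not pass. Other RefSeq starts of *Cdkn1a*, *Bbc3*, *Sesn1* and *Polk* held no match. The matched full sites follow, named by gene, with the bases that fit the motif in capitals. Those of *Aen* came from overlapping windows of a pair of starts and are the same site.

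Cdkn1a: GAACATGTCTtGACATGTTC
Ccng1: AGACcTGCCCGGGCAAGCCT
Trp53: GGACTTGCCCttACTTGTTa
Aen: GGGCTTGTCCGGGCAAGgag
Bbc3: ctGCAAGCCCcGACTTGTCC
Sesn1: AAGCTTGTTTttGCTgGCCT

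They lie in the windows chr17:29090729-29091028, chr11:40755237-40755536, chr11:69580109-69580408, chr7:78895808-78896107, chr7:16309333-16309632 and chr10:41887189-41887488, in the order of the list and written on the strand of the gene. Of these 6 genes, *Cdkn1a* had a site with 1 mismatch and fell by over 2-fold, and *Bbc3* had a site with 3 mismatches and fell by less than 2-fold. *Ccng1*, whose site also had 1 mismatch, did not pass the test, nor did *Trp53*, *Aen* and *Sesn1*, whose sites had 3 each. Of the 8 genes that fell by over 2-fold, 6 had a promoter to search, and *Cdkn1a* alone among these held a perfect decamer. A match describes the letters of the window and does not show binding, and a window without one says nothing about sites outside it. *Cdkn1a* and *Ccng1* are printed in full as the pair of genes with the closest matches and different changes. The sequence is that of the 250 bases before the start, on the strand of the gene, of the plus strand for *Cdkn1a* and the minus strand for *Ccng1*, with matched decamers and full sites in capitals. The *Cdkn1a* window belongs to the more upstream of its 2 starts in RefSeq, and counting the base before the start as -1, its decamers begin at -73 and -51. The site of *Ccng1* begins at -195.

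Cdkn1a promoter: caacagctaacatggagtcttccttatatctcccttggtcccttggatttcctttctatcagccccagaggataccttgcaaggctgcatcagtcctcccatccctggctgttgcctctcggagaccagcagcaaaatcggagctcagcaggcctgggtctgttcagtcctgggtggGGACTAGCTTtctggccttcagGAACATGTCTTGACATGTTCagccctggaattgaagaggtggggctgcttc
Ccng1 promoter: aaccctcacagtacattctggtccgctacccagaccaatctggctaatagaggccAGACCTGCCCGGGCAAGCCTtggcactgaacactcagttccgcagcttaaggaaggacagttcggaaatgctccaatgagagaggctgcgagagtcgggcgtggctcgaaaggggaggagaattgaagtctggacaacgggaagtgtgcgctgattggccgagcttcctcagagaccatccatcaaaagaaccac

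Among p53 and its feedback regulators, 1 of 6 genes passed an adjusted p of 0.01 in edgeR's test, against 28.5% of all tested genes, and it was lower. *Trp53* (ENSMUSG00000059552.13, chr11:69580359-69591873 of GRCm38, plus strand) was at 243 and 202 CPM in PD100 replicates 1 and 2 and at 194 and 191 CPM in PD800. The PD800 libraries were both below the PD100 libraries, but the lower PD100 library came close to them. The log2 fold change of *Trp53* was -0.21 (standard error, SE, 0.10, edgeR adjusted p = 0.148), with a 95% interval from -0.47 to 0.04. Without PD100 replicate 2 it was -0.36 and passed (edgeR adjusted p = 0.000876), and without PD100 replicate 1 it was -0.071 (0.433 from edgeR), so its size depended on which PD100 library was kept. *Mdm2* (chr10:117688875-117710758, minus strand), the ubiquitin ligase that p53 induces and that degrades it, was at 264 and 312 CPM in PD100 and at 361 and 378 CPM in PD800. The groups did not overlap, and the log2 fold change was 0.36 (SE 0.10, edgeR adjusted p = 0.0332, 95% interval from 0.10 to 0.61). *Mdm2* passed 0.01 with DESeq2's Wald test (0.35, adjusted p = 0.00905) and without PD100 replicate 2 (0.46, edgeR adjusted p = 0.000166). It did not without PD100 replicate 1 (0.25, edgeR adjusted p = 0.0119), and limma on log2(TPM + 1) gave 0.15 (adjusted p = 0.317). *Ppm1d*, a phosphatase that removes damage-induced phosphates from p53 and its kinases, was the gene of this group that fell, by 0.50 on the log2 scale (SE 0.09, edgeR adjusted p = 0.00623). Without PD800 replicate 1 or 2 the change of *Ppm1d* was -0.46 and -0.54 and did not pass (edgeR adjusted p = 0.0902 and 0.0506). The other regulators did not pass. *Mdm4*, the partner of Mdm2 that blocks p53's activation domain, had a log2 fold change of 0.37 (edgeR adjusted p = 0.0175), *Trp53inp1*, a nuclear protein that favours phosphorylation of p53, had 0.30 (0.0434), and *Ccng1*, a cyclin that recruits a phosphatase to Mdm2, had 0.28 (0.0287). *Mdm4* passed in DESeq2's test (0.36, adjusted p = 0.00422). Leaving out a PD100 library brought these below 0.01 as well, with 0.43 or 0.29 for *Mdm4* and 0.29 or 0.25 for *Ccng1* (without replicate 1 or 2) and 0.41 for *Trp53inp1* (without replicate 1), which had 0.19 without replicate 2 and did not pass. On log2(TPM + 1), limma gave 0.11 for *Mdm4*, 0.040 for *Ccng1* and 0.0054 for *Trp53inp1* (adjusted p = 0.631, 0.781 and 0.981). Leaving out a library moved the number of calls throughout. Such a fit takes its spread from the group that keeps 2 libraries. Here and below, its p-values hold none of the spread of the other group.

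The genes of cell cycle arrest held 4 of the 8 large decreases, where 8.81% of all tested genes fell by over 2-fold, and none of its 7 genes was higher past the test, against 13.1% of all (0 at an unadjusted p under 0.05 in edgeR and in DESeq2). *Cdkn1a* (ENSMUSG00000023067.13, chr17:29090976-29100727, plus strand) encodes p21, the cyclin-dependent kinase inhibitor through which p53 stops cells in G1. It was at 24.6 and 26.5 CPM in PD100 and at 9.51 and 9.11 CPM in PD800. Both PD800 libraries lay far below both PD100 libraries, whose replicates differed little. Its log2 fold change was -1.45 (SE 0.09, edgeR adjusted p = 0.000145), a 2.74-fold lower level. *Btg2* (chr1:134075170-134079120, minus strand), an antiproliferative gene that acts on mRNA turnover, went from 76.9 and 78.7 CPM to 35.6 and 36.0 CPM. Here the replicates of each group nearly coincided, and the log2 fold change was -1.12 (SE 0.07, edgeR adjusted p = 0.000161).

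The *Gadd45* genes encode small stress proteins that bind p21, the replication clamp and kinases of the p38 and JNK cascades, and each of the 3 paralogs was measured here. *Gadd45g* (chr13:51846678-51848468, plus strand) was at 9.18 and 13.4 CPM in PD100 and at 1.47 and 2.15 CPM in PD800. These replicates were the farthest apart of all 33 genes, yet the groups were well separated. The log2 fold change was -2.64 (SE 0.26, edgeR adjusted p = 0.000659), the lowest of the list, a 6.24-fold lower level. *Gadd45b* (chr10:80930073-80932204, plus strand) was at 16.04 and 14.2 CPM in PD100 and at 6.25 and 5.69 CPM in PD800, a log2 fold change of -1.34 (SE 0.11, edgeR adjusted p = 0.000393). *Gadd45a*, the paralog best known as a p53 target, was at 19.5 and 26.6 CPM in PD100 and at 23.6 and 23.5 CPM in PD800. Its PD800 libraries lay between the PD100 libraries, and the log2 fold change was 0.03 (SE 0.15, edgeR adjusted p = 0.878, 95% interval from -0.34 to 0.40). The sign for *Gadd45a* turned without PD100 replicate 1 (-0.17) and with limma on log2(TPM + 1) (-0.18). Whether the paralogs differ in their change was not tested. Of the stress-induced polo-like kinases, *Plk3* had a log2 fold change of -0.46 (edgeR adjusted p = 0.0125, 0.00735 from DESeq2) and *Plk2* one of 0.18 (0.180 from edgeR), which was -0.045 with limma on log2(TPM + 1). *Plk3* also passed without either PD100 library (-0.35 or -0.59), and *Plk2* without PD100 replicate 1 (0.31) but not without PD100 replicate 2 (0.047).

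The genes of mitochondrial and nuclear apoptosis held calls in both directions, with 3 of 8 higher and 2 lower past the test, where 13.1% of all tested genes were higher and 15.4% lower. *Perp* (ENSMUSG00000019851.8, chr10:18845020-18857073, plus strand) encodes a membrane protein of desmosomes that also serves as a p53 effector of apoptosis. It was at 92.6 and 100.0 CPM in PD100 and at 29.4 and 30.1 CPM in PD800. The groups were far apart, and the log2 fold change of -1.70 (SE 0.08, edgeR adjusted p = 7.06e-05) corresponded to a 3.24-fold lower level. *Bbc3*, the gene of the BH3-only protein Puma, fell by 0.53 on the log2 scale (SE 0.10, edgeR adjusted p = 0.00743), from 15.3 ± 0.542 to 10.6 ± 0.901 CPM (SD, n = 2). It did not pass with limma on log2(TPM + 1) (-0.56, adjusted p = 0.0183), nor without PD800 replicate 1 (-0.44, edgeR adjusted p = 0.0882) or 2 (-0.62, 0.0246). *Pmaip1*, the gene of Noxa, a further BH3-only protein, had a log2 fold change of -0.32 (edgeR adjusted p = 0.0892), and *Bax*, the pore-forming protein downstream of both, had 0.28 (0.147). *Bax* passed without PD100 replicate 2 (0.45, edgeR adjusted p = 0.000622) and *Pmaip1* without PD100 replicate 1 (-0.46, edgeR adjusted p = 0.00101). With the other PD100 library left out neither did, at 0.11 for *Bax* and -0.19 for *Pmaip1* (edgeR adjusted p = 0.295 and 0.116), and limma on log2(TPM + 1) gave 0.0018 for *Bax* and -0.48 for *Pmaip1*.

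Of the 3 genes that rose, *Apaf1* and *Pidd1* encode scaffolds that activate caspases. *Apaf1* (chr10:90989311-91082770, minus strand), the scaffold of the apoptosome, went from 82.9 and 82.2 CPM in PD100 to 140 and 142 CPM in PD800. Its log2 fold change was 0.77 (SE 0.07, edgeR adjusted p = 0.000492), the highest of the 33 genes. *Pidd1* (chr7:141438113-141444025, minus strand), the scaffold that activates caspase-2, went from 21.04 and 18.7 CPM to 34.3 and 31.9 CPM, a log2 fold change of 0.73 (SE 0.09, edgeR adjusted p = 0.00167). *Ei24*, a membrane protein of the endoplasmic reticulum, rose by 0.48 on the log2 scale (SE 0.07, edgeR adjusted p = 0.00296). All 3 rises were below 2-fold and did not pass with limma on log2(TPM + 1), which gave 0.42 for *Apaf1*, 0.49 for *Pidd1* and 0.10 for *Ei24* (adjusted p = 0.0197, 0.0296 and 0.475). Without PD800 replicate 1, *Pidd1* (0.69) and *Ei24* (0.47) did not pass either (adjusted p = 0.0123 and 0.0617 from edgeR), and *Ei24* (0.50) did not without PD800 replicate 2 (0.0430). *Aen*, a nuclease that digests DNA in dying cells, had a log2 fold change of 0.35 (edgeR adjusted p = 0.0112, 0.00534 from DESeq2), and passed without either PD100 library (0.39 or 0.30). On log2(TPM + 1), limma gave 0.022 for *Aen* (adjusted p = 0.896).

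Of the 3 receptors of the tumour necrosis factor family, 2 fell, both by over 2-fold, against 8.81% of all tested genes. *Tnfrsf10b* (ENSMUSG00000022074.6, chr14:69767472-69784411, plus strand), the mouse receptor of the death ligand TRAIL, was at 41.3 and 35.2 CPM in PD100 and at 11.8 and 10.4 CPM in PD800. The difference was much larger than that between replicates, with a log2 fold change of -1.78 (SE 0.12, edgeR adjusted p = 0.000175). *Fas* (chr19:34290666-34327772, plus strand), the receptor of Fas ligand, was the scarcest gene of the list, with 55 and 41 counts in PD100 and 7 and 9 counts in PD800. This is 1.36 and 1.23 CPM against 0.195 and 0.280 CPM, with no overlap between the groups. The log2 fold change was -2.44 (SE 0.32, edgeR adjusted p = 0.00172) and was -0.63 on the log2(TPM + 1) scale, which compresses a gene this low. *Eda2r*, a receptor of ectodysplasin, was higher in both PD800 libraries, at 76.0 and 57.3 CPM in PD100 and 108 and 96.7 CPM in PD800. Its log2 fold change of 0.62 (SE 0.14, edgeR adjusted p = 0.0161) did not pass, but it did with DESeq2's test (0.60, adjusted p = 0.000522) and without either PD100 library (0.84 without replicate 1 and 0.40 without replicate 2). Limma on log2(TPM + 1) gave 0.28 for *Eda2r* (adjusted p = 0.325).

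Growth and stress control was represented by 5 genes, of which 1 passed, against 28.5% of all tested genes. *Ddit4* (ENSMUSG00000020108.4, chr10:59949669-59951834, minus strand), an inhibitor of the growth kinase mTORC1 that hypoxia and glucocorticoids also induce, was at 40.02 and 42.6 CPM in PD100 and at 11.5 and 12.6 CPM in PD800. The libraries of each group lay close together and the groups far apart. The log2 fold change was -1.77 (SE 0.09, edgeR adjusted p = 8.33e-05), a 3.42-fold lower level. The sestrins, which restrain the same kinase when amino acids or redox balance change, did not pass: *Sesn1* had a log2 fold change of -0.11 (edgeR adjusted p = 0.461) with overlapping groups, and *Sesn2* had 0.24 (0.0884). *Phlda3*, which competes with Akt at the membrane, had -0.22 (edgeR adjusted p = 0.155) and *Zmat3*, an RNA-binding zinc finger protein, had 0.29 (0.0386). Without PD100 replicate 1, *Sesn2* (0.36) and *Phlda3* (-0.34) passed, and without PD100 replicate 2, *Zmat3* did (0.36). With the other PD100 library left out, *Sesn2* was at 0.11, *Phlda3* at -0.11 and *Zmat3* at 0.21, none of which passed. Limma on log2(TPM + 1) gave 0.0034 for *Sesn2*, -0.44 for *Phlda3* and 0.075 for *Zmat3* (adjusted p = 0.990, 0.0183 and 0.642).

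None of the 4 DNA repair genes passed in either direction by edgeR or DESeq2 (1 higher and 0 lower at an unadjusted p under 0.05 in edgeR), where 28.5% of all tested genes passed in edgeR's test. *Xpc* and *Ddb2*, which recognise lesions for nucleotide excision repair, had log2 fold changes of -0.27 and 0.27, and *Polk*, a polymerase that copies past lesions, had -0.08. *Rrm2b*, the p53-induced subunit of ribonucleotide reductase, had -0.14, with a 95% interval from -0.42 to 0.13. On log2(TPM + 1) the change of *Rrm2b* was -0.53 (limma, adjusted p = 0.0286), outside this interval, with 2.28 and 2.79 TPM in PD100 and 1.39 and 1.49 TPM in PD800. *Xpc* passed without PD100 replicate 1 (-0.43, edgeR adjusted p = 0.000727) but not without PD100 replicate 2 (-0.12, 0.259). *Ddb2* overlaps *Acp2* on the opposite strand, which had 366 to 526 counts in the 4 libraries against 238 to 334 for *Ddb2*, and since the strand of counting is not given in the sources used here, reads of the pair may not be told apart.

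**Figure D2:**
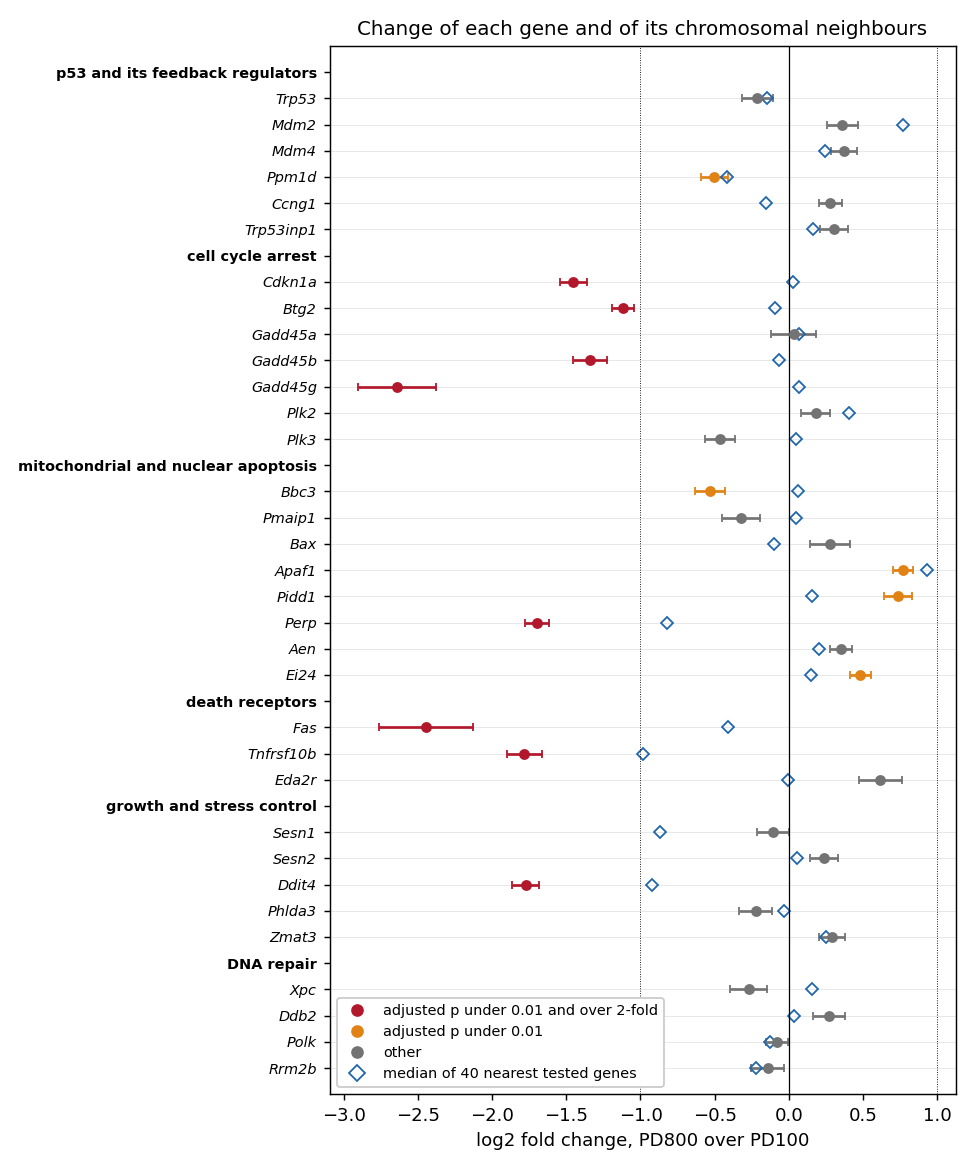
Change of each gene by role, as the log2 fold change of PD800 against PD100, with bars for 1 SE of the edgeR fit, red for an adjusted p under 0.01 and over 2-fold, orange for an adjusted p under 0.01 alone and grey for the others. Open diamonds give the median log2 fold change of the 40 nearest tested genes, which lies between -0.98 and -0.82 for *Perp*, *Tnfrsf10b*, *Sesn1* and *Ddit4* and above 0.75 for *Mdm2* and *Apaf1*.

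Some of the genes lie in chromosome regions where the neighbours moved too. The surroundings of each gene were described by the median log2 fold change over the 40 tested genes nearest to it. It was below -0.75 for *Perp* (-0.82), *Sesn1* (-0.87), *Ddit4* (-0.92) and *Tnfrsf10b* (-0.98), and such surroundings were found for 2.53% of all tested genes. For *Mdm2* (0.77) and *Apaf1* (0.93) it was above 0.75, as for 4.09% of all tested genes. *Apaf1*, the gene with the highest fold change of the list, was therefore below its neighbours, and *Mdm2* was 0.41 below them on the log2 scale. *Sesn1*, which did not change past the test, was 0.76 above its own. The neighbours of *Cdkn1a* (0.03), *Gadd45g* (0.07), *Gadd45b* (-0.07) and *Btg2* (-0.09) had medians near 0. The 8 genes that fell by over 2-fold, which were picked for their low values, differed from the medians of their neighbours by -2.71 to -0.80 on the log2 scale. Of the 33 genes, 6 are on chromosome 10 (*Mdm2*, *Gadd45b*, *Apaf1*, *Perp*, *Sesn1* and *Ddit4*). *Pidd1* was the only one within 5 Mb of the last annotated base of its chromosome. Copy number was not analysed here, and its part in these values was not tested.

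Levels of different genes were compared per length, as TPM. By mean TPM in PD100, *Ccng1* (109), *Mdm2* (106), *Trp53* (101.5) and *Bax* (91.4) led the list, and the PD100 libraries of each overlapped those of the next in this order. *Trp53inp1* (49.8) and *Mdm4* (47.5) came next and overlapped too. In PD800 the means were 118 TPM for *Mdm2*, 112 for *Ccng1*, 91.0 for *Bax* and 73.6 for *Trp53*. *Trp53* was at 116 and 87.0 TPM in PD100 and at 76.2 and 70.9 TPM in PD800, so both PD800 values were below both PD100 values on this scale too. *Bax* was at 81.1 and 102 TPM in PD100 and at 88.7 and 93.3 TPM in PD800, which placed it above *Trp53* in both PD800 libraries. *Cdkn1a* was far lower, at 11.9 TPM in each PD100 library and at 3.71 and 3.44 TPM in PD800. At the bottom in PD100 were *Rrm2b* (2.54 TPM in PD100 and 1.44 TPM in PD800) and *Fas* (0.725 and 0.110 TPM), the only one under 1 TPM. The 8 genes that fell by over 2-fold started from mean levels in PD100 between 0.725 TPM for *Fas* and 39.7 TPM for *Perp*.

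**Figure D3:**
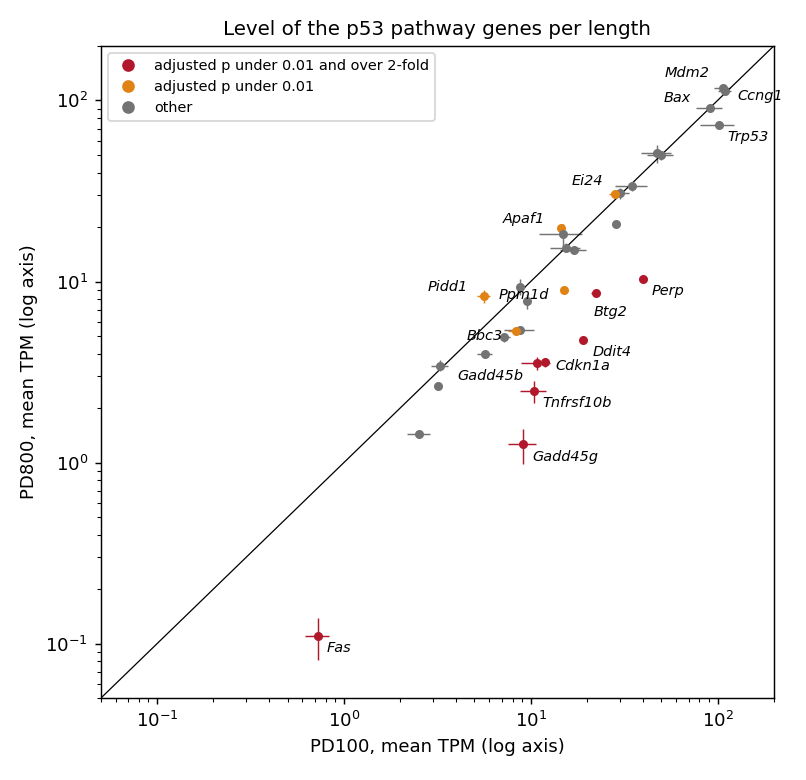
Mean TPM of each gene in PD800 (vertical) against PD100 (horizontal), both on log axes, with bars for the SD of 2 libraries, the diagonal for equal levels, and the colours of significance in red (adjusted p under 0.01 and over 2-fold), orange (adjusted p under 0.01) and grey. *Mdm2*, *Ccng1*, *Bax* and *Trp53* sit at the top near the diagonal, and the red genes form a band below it from *Perp* down to *Fas*.

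RSEM also gives each gene a transcript length, weighted by how much each isoform is used, and 26 of the 33 genes had a length that varied between libraries. The PD800 lengths were longer than both PD100 lengths by more than 1% on average for 5 genes and shorter for 2, where 19.2% and 13.3% of the 12829 tested genes with a varying length were of these kinds. *Rrm2b* was at 2818 and 1982 bases in PD100 and at 3244 and 2995 bases in PD800, so that its PD100 libraries lay farther apart than PD100 replicate 1 lay from either PD800 library. It also overlaps other annotated transcripts. The others were *Trp53inp1* (4.13%), *Aen* (5.92%), *Tnfrsf10b* (2.79%) and *Eda2r* (5.92%) on the longer side and *Bbc3* (-7.73%) and *Sesn1* (-5.43%) on the shorter.

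Other genes of the pathway were counted from 4 lists. Of 12 genes that signal DNA damage to p53, 2 were lower past the test, a share near the 15.4% of all tested genes, and 0 were higher (2 at an unadjusted p under 0.05 in edgeR, 0 past 0.01 in DESeq2). The lower genes were *Trp53bp1*, which binds broken ends, with a log2 fold change of -0.85 (SE 0.09, edgeR adjusted p = 0.000787), and *Rad50*, a subunit of the break-sensing MRN complex, with -0.39. The kinase genes *Atm* and *Atr* had 0.02 and 0.06. Among 21 tested genes of the p53 family and its modifiers, 3 were higher and 3 lower, close to the shares of 13.1% and 15.4% among all tested genes. *Aurka*, a mitotic kinase that phosphorylates p53, rose by 1.28 on the log2 scale (SE 0.08, edgeR adjusted p = 0.000172), and the methyltransferase gene *Smyd2* and the ubiquitin ligase gene *Trim24* rose by 0.75 and 0.60. *Ppp1r13l*, an inhibitory partner of p53, fell by 1.14, the deacetylase gene *Sirt1* fell by 0.64 and *Trp53bp2*, a partner that favours apoptosis, fell by 0.57. *Trp63*, with 1 to 3 counts a library, was too low for a test.

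Of 32 further p53 targets outside the 33, 10 were lower past the test and 6 higher, where 15.4% and 13.1% of all tested genes were, and 7 and 3 of these by over 2-fold, against 8.81% and 6.28%. *Dram1*, a lysosomal gene of autophagy, went from 6.49 and 4.97 CPM to 0.5004 and 0.4975 CPM, a log2 fold change of -3.51 (SE 0.24, edgeR adjusted p = 0.000188). *Thbs1*, a secreted inhibitor of angiogenesis, had a log2 fold change of -2.69. The largest rises were those of *Kitl*, the ligand of Kit, by 2.30, *Dcxr*, a carbonyl reductase, by 1.64, and *Tigar*, which lowers glycolytic flux, by 1.19. Like the 33 genes, this list thus held decreases and increases side by side. The last list held 18 mitotic genes that p53 is known to repress through p21 and the DREAM complex. Of these, 6 were higher and 0 lower past the test (12 and 1 at an unadjusted p under 0.05 in edgeR, and 7 and 0 past 0.01 in DESeq2), among them *Cdc25c* (0.94), *Plk1* (0.80) and *Ccnb2* (0.57). All 6 rises were under 2-fold, and limma on log2(TPM + 1) had 0 of the 18 past 0.01 (4 higher and 2 lower at an unadjusted p under 0.05), or 1 higher with a pseudocount of 0.1. All told, 15 of 83 tested genes of these lists were higher and 15 lower, beside the 13.1% and 15.4% of all tested genes.

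**Figure D4:**
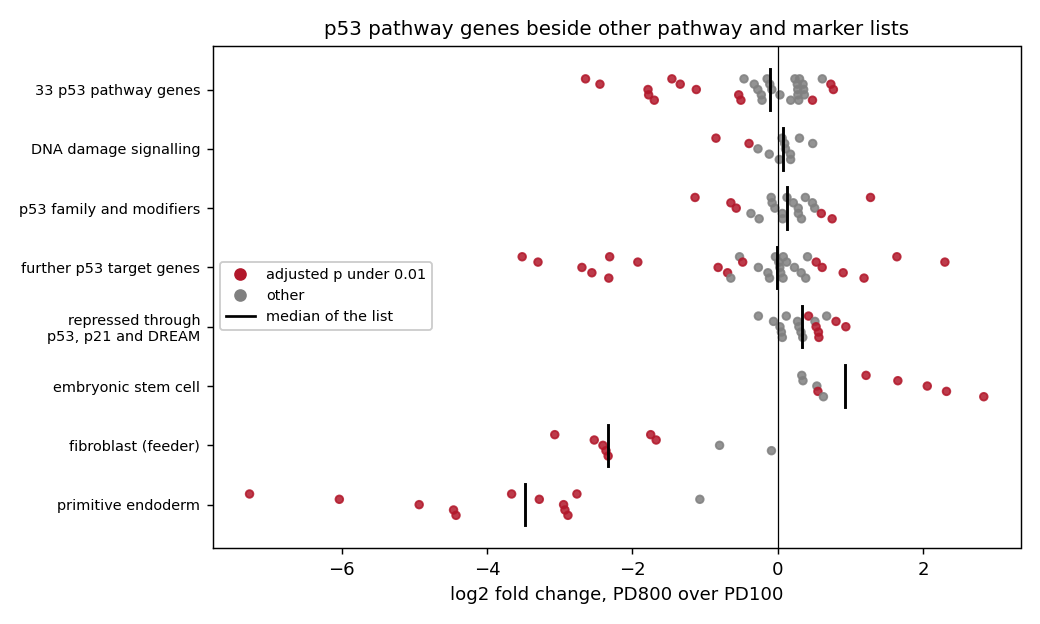
Change between PD100 and PD800 (log2 fold change, positive where PD800 was higher) for each tested gene of the 33 p53 pathway genes, the 4 other pathway lists and the 3 marker lists, with red for an adjusted p under 0.01, grey for the others and a black bar for the median of the list. The p53 lists straddle 0, with medians from -0.11 to 0.33, while the primitive endoderm and fibroblast markers lie to the left and the embryonic stem cell markers to the right. The farthest left point, *Foxa2*, had 1 count in each PD800 library, so that its position is not a measured fold.

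Marker genes of other cells fell in the same comparison, in which 15.4% of all tested genes were lower and 13.1% higher past the test. Of 12 primitive endoderm markers, 11 were lower past the test. The 12 summed to 2321 and 2648 CPM in the PD100 libraries and 226 and 234 CPM in the PD800 libraries, where *Foxa2* was at 1 count each. Most of the PD100 sum came from *Col4a1*, *Lama1* and *Lamb1*, with PD100 means of 1147, 636 and 529 CPM. The PD100 means of *Gata6* and *Sox17* were 14.7 and 17.5 CPM. Of 9 tested fibroblast markers, which the feeder cells would carry, 7 were lower, with sums of 102 and 124 CPM against 24.5 and 26.8 CPM. *Lum* was at 0 in 3 libraries and at 1 count in the other. The 10 embryonic stem cell markers summed to 2240 and 2540 CPM and then to 4419 and 4503 CPM, with 6 higher and 0 lower past the test (9 and 0 at an unadjusted p under 0.05 in edgeR, and 9 and 0 past 0.01 in DESeq2). The decreases of *Cdkn1a*, *Btg2*, *Gadd45b*, *Gadd45g*, *Perp*, *Fas*, *Tnfrsf10b* and *Ddit4* ran alongside these shifts, and the part of such cells in them was not tested. The study also sequenced RNA of single cells and reports that PD100 and PD800 cells formed distinct populations, each of high homogeneity. Those data were not used here.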

How the data were processed

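RNA of PD100 and PD800 cells was sequenced in paired reads of 101 bases, with 2 libraries per group. The authors aligned the reads to mm10 (GRCm38) with STAR 2.5.3a and deposited gene tables from RSEM 1.3.0. These hold the expected count, in which a read with several possible sources is shared among them and depth is left unscaled. They also hold the TPM value that the authors deposited, which RSEM scales for length and to a fixed total, and a transcript length in bases. The submitters' processing notes also list DESeq2 1.18.1. The annotation release and the strand of counting are not given in the sources used here. The authors' FPKM values were not used.

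After rounding, expected counts were tested with edgeR 4.0.16 (R 4.3.3) by its quasi-likelihood test, with TMM factors, the filter filterByExpr (at least 10 counts) and Benjamini-Hochberg adjustment over all 19148 genes. The libraries were grouped by population doubling. Calls used an adjusted p under 0.01, with and without a fold change over 2. With 2 libraries against 2, an exact two-sided permutation test of 1 gene has 0.333 as its smallest p, and the p-values here draw on the spread estimated over all genes. Total counts and the floor of 3 counts bear on counting error only. Replicates were compared by a chi-square test of their counts, which was 57.9 per degree of freedom in PD100 and 9.13 in PD800, so that no library was a copy of another.

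The 33 genes and all lists were chosen with earlier results of these data known. Every member is named. Those past both thresholds and *Trp53*, *Cdkn1a* and *Mdm2* are given in full, and of the other pathway lists up to 3 genes per direction with the largest change, an adjusted p under 0.01 and a mean of at least 1 CPM. A gene that this rule would name is not reported here. *Atm*, *Atr*, *Pou5f1* and the overlapping genes were added after their values were seen. *Cop1* was matched through its RefSeq synonym *Rfwd2*. Positions come from GENCODE M21 (GRCm38). Counts were not whole (beyond 0.005) for 6 members, *Mdm4*, *Gadd45a*, *Bax*, *Tnfrsf10b*, *Ddb2* and *Rrm2b*, where reads were divided between genes, and 13 members overlap another annotated gene.

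The fit was repeated with DESeq2 1.42.0 in place of edgeR, with size factors or upper quartiles in place of TMM, with TMM computed without mitochondrial genes, without the filter or with a minimum of 10 counts in all libraries, with a block for the replicate number, with limma 3.58.1 on log2(TPM + 1) or a pseudocount of 0.1, at an adjusted p under 0.05, and leaving out each library. The procedure was tested on simulated data.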

Additional observations from a re-analysis of the deposited data

How the results depend on the processing

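The number of members lower by over 2-fold was 8 in the edgeR fit and stayed at 8 under the alternative fits, with 2 exceptions (7 each). With at least 10 counts in every library *Fas* was not tested, and with limma on log2(TPM + 1) *Fas* did not reach 2-fold. The adjusted p under 0.05 was not applied to this count. With each library left out in turn, which leaves a lone library assumed to vary like the rest, the same 8 genes stayed past both thresholds. The number of members lower past the adjusted p was 10, and 8 to 14 with a library left out. The number higher past the adjusted p was 3 and changed most: it was 8 with no expression filter, 8 with the replicate block, 7 with DESeq2's Wald test, 0 with limma on log2(TPM + 1) and 0 with a pseudocount of 0.1 (2 at an unadjusted p under 0.05 in both), 10 at an adjusted p under 0.05, and 1 to 10 with a library left out. For the other pathway genes, 15 were higher, and 24 with no filter, 28 with the replicate block, 5 and 6 with limma at pseudocounts of 1 and 0.1, and 7 to 27 with a library left out. Their number lower was 15, and 7 to 19 with a library left out. These counts rose without a PD100 library and fell without a PD800 library, and the cause was not tested.

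Direction turned for *Gadd45a*, to -0.18 on log2(TPM + 1), -0.19 on log2(TPM + 0.1) and -0.17 without PD100 replicate 1 (0.25 without PD100 replicate 2), and for *Plk2*, to -0.045 and -0.046 on these scales. Libraries of the same replicate number deviated together (correlation across genes 0.350), but with 2 pairs the numbers are not shown to pair the libraries. With the replicate block, 8 members were higher and 12 lower past the adjusted p, and 3417 of all genes were past both thresholds, against 2888 without it. *Fas*, with 7 and 9 counts in PD800, is the member whose size of change depth limits most.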
